A study of Homo sapiens with 2 samples.

Results

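The endoplasmic reticulum (ER) unfolded protein response was examined as 35 listed genes, comprising the ER chaperones, the machinery of ER-associated degradation, and the ATF6, IRE1 and PERK branches of the stress signal. Members were taken by name, as the probe sets that the platform annotation gives to 1 member alone, and 34 of the 35 could be read in this way among 19775 genes in all. SYVN1, an ER ubiquitin ligase, had only 1 probe set and shares it with another gene, so it was not analysed here. The cells were AGS, a human gastric adenocarcinoma line, stably transduced and selected with puromycin. AGS.W carries a lentiviral vector with the WTX coding region (overexpression), and AGS.veh is the negative control. RNA of each line went onto 1 Affymetrix U133 Plus 2.0 array, so no value below has a replicate, an error or a test. All values are log2 signals, and a difference is AGS.W minus AGS.veh, in which 1 unit is 2-fold.

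Proteins that enter the ER are folded there by chaperones and by enzymes that form disulfide bonds. When unfolded protein accumulates, it is sensed by ERN1 (IRE1), ATF6 and EIF2AK3 (PERK), which lie in the ER membrane. IRE1 splices the mRNA of the transcription factor XBP1, ATF6 is cut in the Golgi to release a transcription factor, and PERK phosphorylates eIF2alpha, which slows translation while favouring ATF4. The outputs are more chaperones, more degradation of misfolded protein and, under prolonged stress, induction of DDIT3 (CHOP). The arrays read mRNA levels and not XBP1 splicing, ATF6 cleavage or PERK activity.

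Some promoters of these genes hold the DNA elements through which the response is known to act. The ER stress response element (ERSE, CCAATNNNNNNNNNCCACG) joins a site of the factor NF-Y to a site of ATF6, and ERSE-II (ATTGGNCCACG) is a shorter form of it. Both strands of the RefSeq promoters (GRCh38.p14, from 250 bases before to 50 bases after each start site) were searched for these letters. Promoters were in the table for 31 of the 35 members, and DERL1, DERL3, PDIA3 and SEC24D were not matched. ERSE was found for 7 of the 31, against 0.0916% of all 27305 genes in the table (0.0769% of its 35116 promoters). ERSE and ERSE-II were both absent from the promoters of 21 of the 31. The windows are shown because they hold the element that these members share. Each line reads 5′ to 3′ along the gene, with 20 bases on either side and the element in capitals, which is in reverse orientation in CRELD2 and CALR. HSP90B1 has a further ERSE that is not shown.
HSPA5 (chr9:125241371-125241429, gene on the minus strand): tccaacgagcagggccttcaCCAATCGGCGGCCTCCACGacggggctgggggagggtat
HSP90B1 (chr12:103930196-103930254, gene on the plus strand): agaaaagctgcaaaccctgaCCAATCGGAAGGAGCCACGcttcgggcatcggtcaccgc
XBP1 (chr22:28800583-28800641, gene on the minus strand): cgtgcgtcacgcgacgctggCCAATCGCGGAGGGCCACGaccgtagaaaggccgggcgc
PDIA6 (chr2:10812833-10812891, gene on the minus strand): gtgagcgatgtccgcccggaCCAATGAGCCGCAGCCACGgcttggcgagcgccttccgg
CANX (chr5:179698758-179698816, gene on the plus strand): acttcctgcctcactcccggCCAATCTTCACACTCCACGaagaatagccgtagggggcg
CRELD2 (chr22:49918534-49918592, gene on the plus strand): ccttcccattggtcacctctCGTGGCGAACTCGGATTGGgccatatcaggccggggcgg
CALR (chr19:12938364-12938422, gene on the plus strand): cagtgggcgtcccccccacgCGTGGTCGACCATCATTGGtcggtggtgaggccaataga

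ERSE-II was found for 3 other members and for 0.0696% of all genes (0.0541% of promoters), and HYOU1 has it at 2 positions, of which the one further from the start site is shown. These windows are shown in the same way, and in HYOU1 and SDF2L1 the element is in reverse orientation.
HERPUD1 (chr16:56932005-56932055, gene on the plus strand): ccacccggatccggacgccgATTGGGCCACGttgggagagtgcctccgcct
HYOU1 (chr11:119057360-119057410, gene on the minus strand): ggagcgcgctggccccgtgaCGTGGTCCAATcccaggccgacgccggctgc
SDF2L1 (chr22:21642094-21642144, gene on the plus strand): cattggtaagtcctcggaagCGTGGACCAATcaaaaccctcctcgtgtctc

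The UPRE core (TGACGTG), a site of XBP1 and ATF6, was in 2 of the 31 members, SEC61A1 and HYOU1, and in 2.40% of all genes (1.97% of promoters). In HYOU1 it overlapped the ERSE-II that is shown. The CCACG letters alone were in 23 of the 31 and in 42.1% of all genes (38.1% of promoters). A match is a run of letters and not evidence of binding, and genes known as targets of this response were among those listed, so these shares describe the list.

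**Figure D1:**
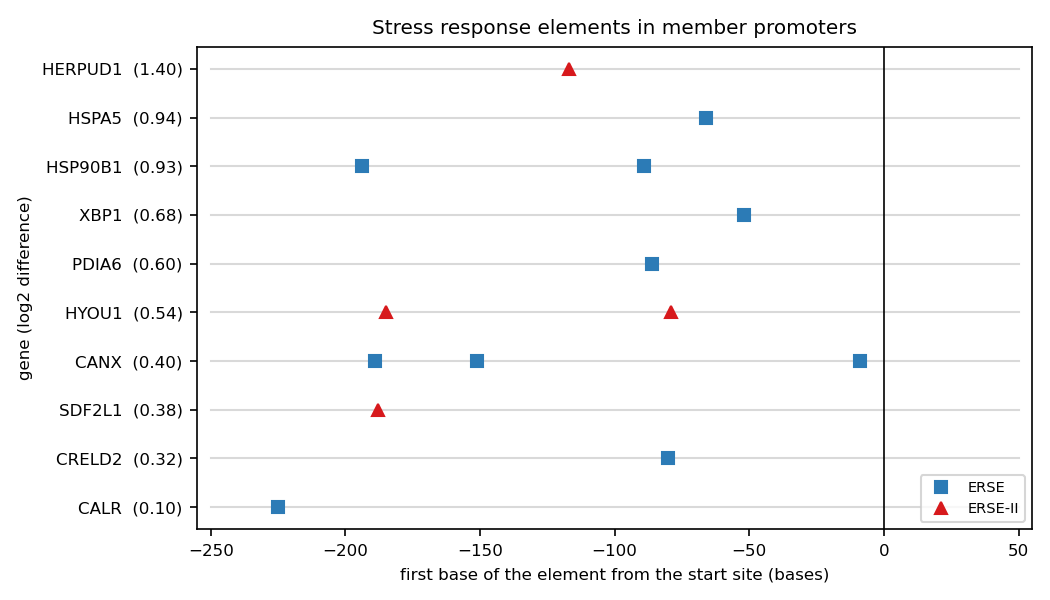
Position of ERSE (squares) and ERSE-II (triangles) in the promoters of the 10 members that hold one, as bases of the first letter from the start site (horizontal axis), with the log2 difference between AGS.W and AGS.veh beside each name. The 3 squares of CANX are 1 element seen from 3 annotated start sites, and all 10 differences lie between 0.10 and 1.40.

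As a check of the material, WTX itself (AMER1) was read by 1 probe set, at 3.70 (AGS.W) and 3.86 (AGS.veh), and both lay below the array medians of 4.02 and 4.03. Its position relative to the coding region in the vector is unknown here, which leaves the labels unchecked by this gene. The labels give AGS as the cell line, but their extraction note names a brain tissue. Epithelial markers were above the signal filter defined below for 6 of 7 genes, with KRT19 the exception. That filter kept 12811 of the 19775 genes in all, so passing it alone does not show that a marker is expressed. KRT7 (8.53 in AGS.W, 9.42 in AGS.veh) was more than 1.5-fold lower, or -0.27 in log2 averaged over 4 probe sets. EPCAM (6.88, 5.96) and MUC1 (9.91, 9.13) were more than 1.5-fold higher, and KRT8, KRT18 and CLDN4 differed by -0.38, -0.31 and -0.37. Averaged over 2 probe sets, CLDN4 had -0.04. Of the measured markers of neurons, astrocytes and oligodendrocytes, 4 of 9, 3 of 6 and 3 of 4 were above that filter, and GFAP was not. The brightest were GAD1 of neurons, at 7.06 (AGS.W) and 7.11 (AGS.veh), and MBP of oligodendrocytes, at 6.10 and 6.19. Both genes thus lay above the array medians. SNAP25, a synaptic gene, was the only marker of these 3 cell types at least 2-fold apart, at 5.15 (AGS.W) and 3.57 (AGS.veh). The latter lay below the array median, and averaged over 3 probe sets its difference was 0.85, below 2-fold. Markers of differentiated stomach were above the signal filter for 5 of 10 genes, and none was 2-fold apart. Fibroblast markers were above it for 3 of 6, with COL1A1 at 7.89 and 6.95 (0.29 averaged over 5 probe sets), and leukocyte markers for 2 of 4. The part of these markers in the results was not tested.

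Most of the unfolded protein response genes were higher in AGS.W than in AGS.veh. Each gene was read from its brightest probe set, by mean signal, and kept if either array had it at or above the median of that array, as was so for all 34 measured members. Differences were above 0 for 29 of the 34, against 45.7% of the 12811 genes kept in all, and their median was 0.46, against -0.01 for all genes. DDIT3, HERPUD1 and ERN1 were at least 2-fold higher, a threshold that 1.83% of all genes passed, and no member was 2-fold lower, as 1.94% of genes were. At 1.5-fold, 12 members were higher and none was lower, against 6.64% and 7.37% of genes. The differences ran from -0.26 for EDEM2 to 2.07 for DDIT3. Because bulk RNA was measured, more cells with a transcript and more of it per cell cannot be told apart.

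**Figure D2:**
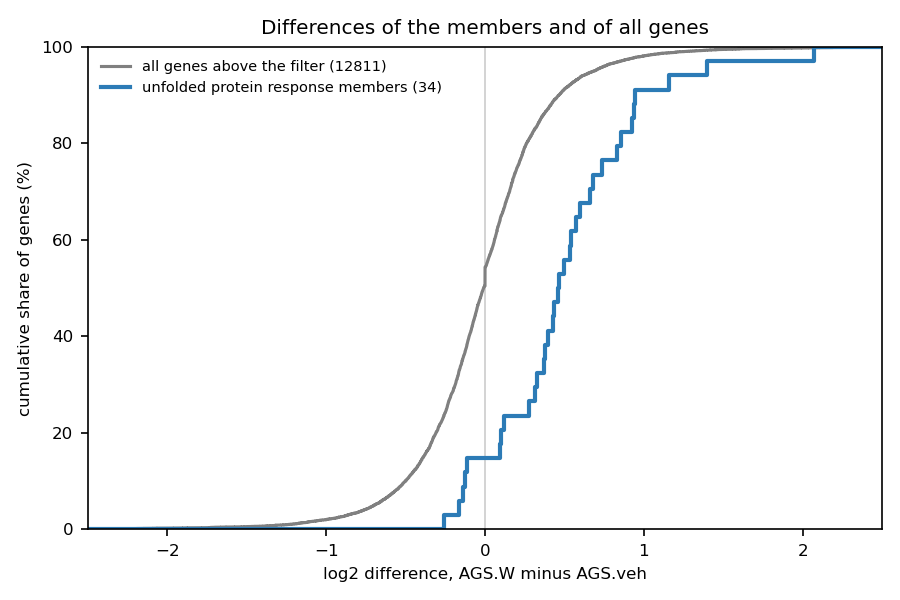
Cumulative share of genes (vertical axis, percent) against the log2 difference between AGS.W and AGS.veh (horizontal axis) for the 34 members and for the 12811 genes above the signal filter, 1 array per line. The curve of the members lies to the right of that of all genes, with medians of 0.46 and -0.01.

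Among the sensors and their transcription factors, all 5 were higher in AGS.W, with a median difference of 0.68, or 0.45 as means over the probe sets of a gene. ERN1, the IRE1 kinase and endonuclease, had log2 signals of 6.92 (AGS.W) and 5.76 (AGS.veh), a 2.23-fold difference. Its other probe set above the median differed by 0.36, so the sizes on both disagreed while the direction did not. EIF2AK3, the PERK kinase, read 7.46 and 6.62, which is 1.78-fold higher. XBP1, the substrate of IRE1, read 7.87 and 7.19 and had a difference of 0.68, or 0.21 on its other probe set.

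ATF6 gave a less clear picture. Its brightest probe set read 8.24 (AGS.W) and 7.91 (AGS.veh), and of its 4 probe sets 3 were higher, with differences from -0.38 to 0.38. CREB3L2, an ER-anchored factor related to ATF6, read 9.58 and 9.49, nearly equal signals, whereas its other probe set above the median was higher by 0.67. For both genes the choice of probe set thus decided the size, and for ATF6 also the direction.

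The outputs of the PERK branch included the largest difference of the list. DDIT3, a transcription factor that promotes cell death under lasting stress, read 8.79 in AGS.W and 6.72 in AGS.veh, a 4.20-fold difference on its only probe set. Only 19 of the 12811 genes had a larger difference in the same direction. PPP1R15A (GADD34), which guides the phosphatase that reverses eIF2alpha phosphorylation, read 7.60 and 7.17, and its 2 probe sets were higher by 0.43 and 0.49.

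All 15 ER chaperones and folding enzymes were higher in AGS.W, with a median difference of 0.50. None of them reached 2-fold and 5 reached 1.5-fold, against 1.83% and 6.64% of all genes. HSPA5 (BiP), the main Hsp70 of the ER, read 11.97 (AGS.W) and 11.03 (AGS.veh), and its 2 probe sets were higher by 0.94 and 0.87. HSP90B1 (GRP94), the ER Hsp90, read 10.56 and 9.63, and its 2 probe sets were higher by 0.93 and 0.75. Both HSP90B1 probe sets are of the _x_at type, whose probes may also match other transcripts, and 2 more that the annotation shares with another gene were not used. As ratios, HSPA5 was 1.92-fold and HSP90B1 1.90-fold higher.

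The J-domain proteins that work with BiP differed in size but not in direction. DNAJB9, which restrains IRE1 and helps degradation, read 7.76 in AGS.W and 6.91 in AGS.veh, with 0.48, 0.86 and 0.95 on its 3 probe sets. DNAJC3 (p58IPK) read 8.71 and 8.17, and all 4 of its probe sets were higher, by 0.37 to 0.54. DNAJB11 read 9.08 and 8.71 on a single probe set. HYOU1, which exchanges nucleotides on BiP, read 9.44 and 8.90, and SDF2L1, which assists BiP and DNAJB11, read 8.69 and 8.31. Of the soluble stress proteins, MANF was 1.67-fold higher, at 10.76 and 10.03, and CRELD2 had 8.57 and 8.26.

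The protein disulfide isomerases were higher on their brightest probe sets, by 0.46 to 0.60. PDIA6 read 10.54 (AGS.W) and 9.95 (AGS.veh), and its 4 probe sets were higher by 0.52 to 0.80. P4HB (PDI) read 10.31 and 9.81, PDIA3 (ERp57) 10.71 and 10.25, and PDIA4 (ERp72) 8.76 and 8.30. One probe set of P4HB differed by -0.02, the dimmer ones of PDIA3 by 0.17 and 0.26, and as means over all probe sets the 4 genes ran from 0.30 for PDIA3 to 0.65 for PDIA6. Calnexin and calreticulin, the lectins that hold glycoproteins for PDIA3, diverged in size. CANX read 11.25 and 10.86, with 0.40 to 0.73 over 4 probe sets above the median, whereas CALR read 9.43 and 9.34, with 0.10 to 0.26 over 3.

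Of the genes of ER-associated degradation, 6 of the 8 measured were higher and 2 lower, with a median difference of 0.35. This median was 0.16 as medians of the probe sets above the filter, and also without _x_at and _s_at probe sets. HERPUD1, a membrane protein of the retrotranslocation complex, read 10.75 in AGS.W and 9.35 in AGS.veh, a 2.63-fold difference, and its dimmer probe set was higher by 0.47. SEL1L, the adaptor of that complex, read 7.75 and 7.08, and its 3 probe sets above the median were higher by 0.18 to 0.66. OS9, a lectin that delivers misfolded glycoproteins to it, read 7.58 and 7.30.

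The derlins, membrane proteins of the same route, did not behave alike. DERL3 read 6.09 in AGS.W and 5.15 in AGS.veh on its brightest probe set, 1.92-fold apart, yet its others differed by 0.04 and 0.00. DERL1 read 8.61 and 8.18 and was higher on all 4 probe sets, by 0.08 to 0.43. DERL2 read 8.81 and 8.94 with differences of -0.14 on both probe sets. The mannosidase-like proteins also diverged, with EDEM1 at 6.89 and 6.77 and EDEM2 at 4.93 and 5.19.

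Of the members of translocation, transport and the ER membrane, 1 of 4 was higher and 3 were lower in AGS.W, with a median difference of -0.12. As means over probe sets the median was 0.05, so its direction turned. SEC61A1, the pore of the translocon, read 8.51 in AGS.W and 8.67 in AGS.veh, with -0.16 on both probe sets. SEC61B, a small subunit of the same channel, read 10.46 and 10.57, though a dimmer probe set was higher by 0.55. WFS1, an ER membrane protein lost in Wolfram syndrome, read 5.45 and 5.58. SEC24D, a cargo subunit of COPII vesicles, was the exception, with 4.69 and 4.12, near the array median in AGS.veh, and a difference of 0.57. A dimmer probe set differed by 0.88 but passed the filter through AGS.W alone, at 4.44 against 3.56 in AGS.veh.

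**Figure D3:**
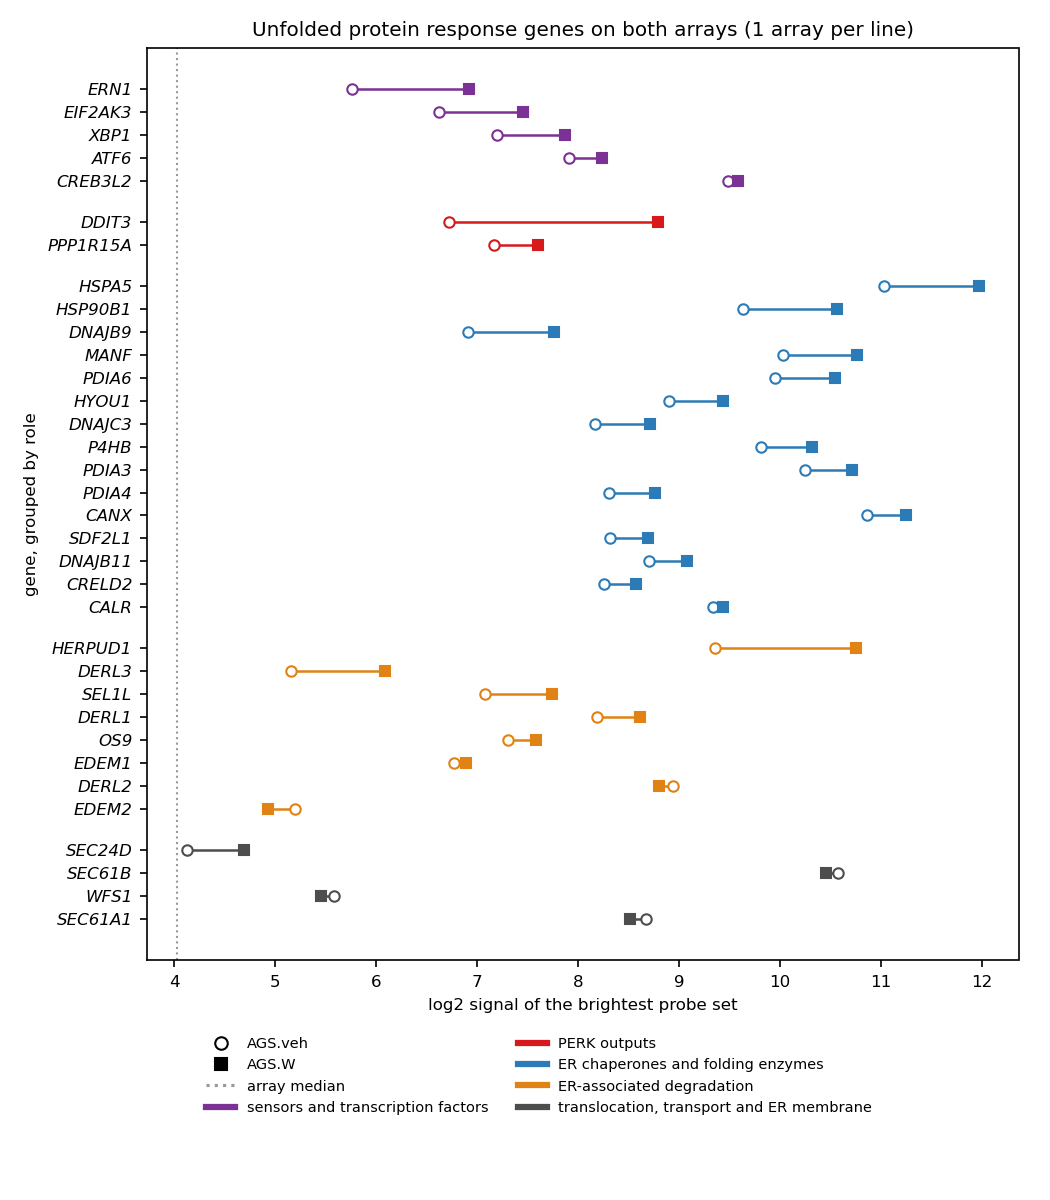
Members grouped by role and ordered by difference, with the log2 signal of the brightest probe set on the horizontal axis, circles for the AGS.veh array, squares for the AGS.W array and a dotted line at the array median. The square lies to the right of the circle for 29 genes and to the left for DERL2, EDEM2, SEC61A1, SEC61B and WFS1.

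Grouped by arm, differences above 0 made up 17 of 18 genes assigned to ATF6, 9 of 13 assigned to IRE1 and XBP1, and all 3 of the PERK arm. Median differences were 0.50, 0.46 and 0.83. At 1.5-fold, 8 of the 18, 3 of the 13 and 2 of the 3 were higher, against 6.64% of all genes. In the ATF6 arm WFS1 was the exception, and in the IRE1 arm DERL2, EDEM2, SEC61A1 and SEC61B were. Genes were assigned from general knowledge, many are targets of more than 1 arm, and XBP1 was counted both under ATF6 and under IRE1. Differences between the arms were not tested, since no replicate existed. As means over all probe sets of a gene, the medians were 0.39 for the ATF6 arm, 0.30 for the IRE1 arm and 0.66 for the PERK arm.

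The probe sets of a gene read the same 2 RNA samples and are no replicates, but they show whether a difference hangs on 1 set of probes. Of 75 member probe sets at or above the median of either array, 64 were higher in AGS.W (85.3%), against 46.1% of all 23332 such probe sets of single genes. Leaving out those that represented their gene, 41 remained for 25 genes, of which 35 were higher, with a median of 0.37. Of the 25 members with several such probe sets, 21 agreed in direction throughout, and ATF6, DERL3, P4HB and SEC61B did not. These counts include dim probe sets that only the AGS.W array brought past the filter. They were 1 each of HERPUD1 (4.46 against 3.99 in AGS.veh), DNAJB9 (4.18 against 3.70) and SEC24D (4.44 against 3.56). Passing in this way nearly fixes the direction, so these probe sets are no check of it. As means over all probe sets of a gene, ERN1 had 0.55 and HERPUD1 0.94, which left DDIT3 as the only member past 2-fold.

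**Figure D4:**
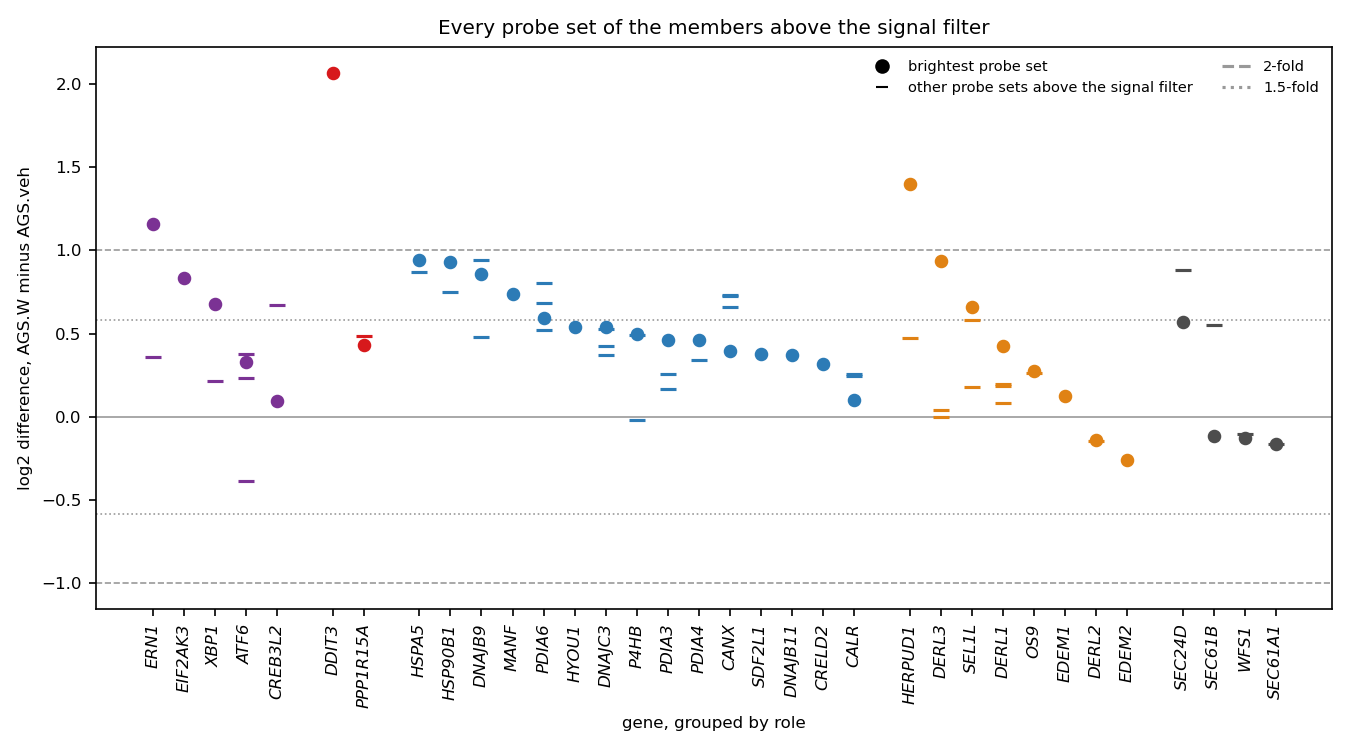
Log2 difference AGS.W minus AGS.veh (vertical axis) of every member probe set at or above the median of either array, with the brightest of each gene as a filled circle and the others as dashes, grouped by role. Most marks lie above 0, DDIT3 stands at 2.07, and the marks of ATF6 lie on both sides of 0.

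The 10 members with ERSE or ERSE-II were all higher in AGS.W, with a median of 0.57, the lowest at 0.10 for CALR and the highest at 1.40 for HERPUD1. Of the 20 measured members whose promoters held neither, 15 were higher, with a median of 0.40, and DDIT3 and ERN1 were among them. Outside the list, 34 genes held either element, of which 22 were measured above the signal filter. Differences were above 0 for 15 of these 22 (68.2%), with a median of 0.21, against 45.4% of 10287 other genes in the table and a median of -0.01. None of the 22 was 2-fold apart. FICD, whose product modifies BiP, had the highest difference at 0.95, and SYNPO, an actin-associated gene, the lowest at -0.77, both named after their values were seen. Over all genes, 5 of the 41 elements lay in the promoters of 2 genes each, so these genes are not independent.

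Of the neighbouring pathways, the genes of COPII vesicles and early transport were higher most often. In AGS.W 17 of 19 were higher, with a median of 0.40. Past 1.5-fold were 3 and past 2-fold none, against 6.64% and 1.83% of all genes. These 3 were KDELR3, a receptor that returns chaperones to the ER (8.34 and 7.54), LMAN1, a cargo lectin (10.69 and 9.94), and SEC24A, a paralogue of SEC24D (7.99 and 7.39). Subunits of the oligosaccharyltransferase, which attaches N-glycans, were higher for 7 of 9, with a median of 0.21. By contrast, signal peptide translocation stood at 10 of 19 with a median of 0.01, and the further factors of ER-associated degradation at 10 of 21 with a median of 0.00.

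Further ER folding factors were higher for 16 of 28, with a median of 0.07. Of these, ERO1A, the oxidase that recharges the disulfide isomerases, read 9.63 (AGS.W) and 7.35 (AGS.veh), and GANAB, a subunit of glucosidase II, read 8.49 and 7.29. They were the only 2 of the list past 2-fold, and none was 2-fold lower, against 1.83% and 1.94% of all genes. Other signalling genes of the response were higher for 7 of 17, with a median of -0.01. Among these PPP1R15B, the constitutive counterpart of PPP1R15A, was the only one past 1.5-fold, at 9.32 and 8.40. Of all genes, 6.64% were as much higher.

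The targets of PERK and ATF4 were higher for 13 of 16, with a median of 0.17. Past 2-fold were the inhibin subunit INHBE (5.17 in AGS.W against 3.23, below the median, in AGS.veh), the lipoprotein receptor VLDLR (6.17 and 4.84) and TRIB3, a pseudokinase induced by DDIT3 (8.98 and 7.97). As the mean of its probe sets TRIB3 had 0.72. ATF4 itself read 10.90 on both arrays, and ASNS, the asparagine synthetase that ATF4 controls, read 7.72 and 7.97. Averaged over 2 probe sets, ASNS differed by -0.02. The lowest was SLC7A11, the cystine transporter, at 7.07 and 7.96. The list was thus uneven, with 6 genes 1.5-fold higher and 2 as much lower, against 6.64% and 7.37% of all genes. As means over probe sets the 2 lower ones, SLC7A11 and STC2, had -0.64 and -0.21. GDF15, 1 of the 6 higher, had 0.20 as such a mean.

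Genes linked to death under ER stress were lower for most. Of 9 measured, 2 were higher in AGS.W, against 45.7% of all genes, with a median of -0.38 on the brightest probe sets. At least 1.5-fold lower were 3, against 7.37% of all genes. These were CASP4 (6.54 in AGS.W and 7.45 in AGS.veh), GADD45A (8.65 and 9.37) and BID (7.86 and 8.55). ITPR1, the ER calcium release channel, was past 2-fold, at 9.70 and 7.38. As means over probe sets ITPR1 had 1.97 and BID -1.12, which is more than 2-fold lower. BCL2L11 differed by -0.53 on its brightest probe set but by -0.05 as such a mean. Of the 9 such means the middle one was that of PMAIP1, at -0.08. The size of the median thus depended on the probe sets. TNFRSF10B (death receptor 5), known as a target of DDIT3, read 8.96 and 9.12, and differed by -0.0003 as the mean of its probe sets.

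**Figure D5:**
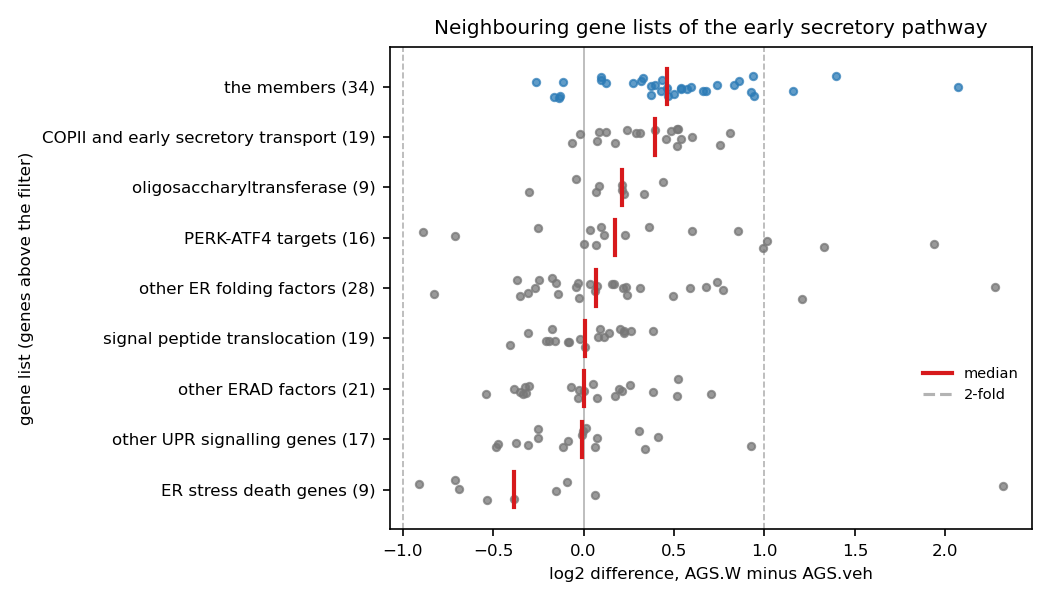
Log2 difference AGS.W minus AGS.veh (horizontal axis) of each gene above the signal filter in 8 lists around the ER, with the members at the top and red bars for the medians. Vertical scatter has no meaning, and medians on the brightest probe sets run from 0.46 for the members to -0.38 for the death genes.

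With 1 array per line, a difference between AGS.W and AGS.veh cannot be told apart from the state of each culture at harvest or from the hybridisation.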

How the data were processed

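AGS.W and AGS.veh RNA was hybridised to U133 Plus 2.0 arrays, 1 per line. The authors deposited log2 signals, 1 per probe set, already normalized between the arrays. RMA and MAS5 are named in the submitters' processing notes, and the sources used here do not give their roles and versions. No renormalization was applied. After 62 control probe sets were left out, 54613 remained, of which annotation of 2016 gives 41091 to 1 gene and 1801 to several, and those were not used. Symbols were updated by gene identifier to RefSeq of GRCh38.p14. No depth exists for arrays, and their number limits the precision.

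The log2 difference was computed per gene. The 2-fold threshold follows the methods of the paper, whose FDR needs replicates. Every measured member is named, with up to 3 genes in each direction past 2-fold from each further list, and genes of these lists below 2-fold were named after their values were seen. The members and lists were chosen with earlier results of these data known. Promoter letters were searched in the RefSeq table, and protein features were not analysed here. The scripts were tested on simulated data. Alternatives were other scalings, signal filters, probe set summaries and fold thresholds. The tools were numpy 2.4.6, statsmodels 0.14.6, pandas 2.3.3 and matplotlib 3.10.9 under Python 3.11.15.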

Additional observations from a re-analysis of the deposited data

How the results depend on the processing

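No paired analysis was possible because there was 1 array per line, and none could be left out. The 3 members past 2-fold became 1, DDIT3, as the mean of all probe sets or the median of those above the filter. Their count was 2, DDIT3 and ERN1, without _x_at and _s_at probe sets, 12 at 1.5-fold and 1 at 3-fold. No member was lower by these thresholds under any alternative run. The 12 members past 1.5-fold ranged from 10 to 12 over alternatives chosen after seeing the data. Median centring, quantile normalization and a lowess curve of span 0.3 left 29 members higher, and no scaling moved the median of all genes by 0.1. The median of the ATF6 arm was 0.39 as means of probe sets, and that of the IRE1 arm was 0.30 as such means and 0.26 as medians of probe sets. That of the sensors was 0.45 as means or medians of probe sets. That of degradation was 0.16 as such medians or without _x_at and _s_at probe sets, and that of translocation and transport turned from -0.12 to 0.05 as means or medians. No other group's median moved by over 1.5 times. Of 232 alternative values of single members, 219 moved by less than the robust spread of differences at their signal level, but many of these could not move. Median centring shifts all genes alike, and setting dim signals to the array median altered no member. Genes with 1 probe set keep their value as means or medians of probe sets. The 13 others came from other probe set summaries, and the cause was not tested. SEC61B alone changed sign, to 0.22. Without _x_at and _s_at probe sets 6 members had no value. HERPUD1 then had 0.47, from a dim probe set that passed the filter through AGS.W alone. Setting dim signals to the array median could not change the 3 members past 2-fold, as all 34 members reached the median on both arrays.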

Other observations

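Of the member probe sets, 6 lay below the median of both arrays, where signal may be background. Those of CANX, CREB3L2, EIF2AK3, ERN1 and SEC24D differed by 0.42, 0.37, 0.49, 0.12 and 0.52, and that of SEL1L by -0.15.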
